A study of Homo sapiens with 4 samples.

Results

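The genes described here are 9 p53 targets of cell cycle arrest and the stress response: CDKN1A, SFN, BTG2, GADD45A, SESN2, PLK2, PLK3, GDF15 and ZMAT3. They were examined in MCF10A cells, an immortalized, non-tumour human breast epithelial line, kept under normal growth conditions. Chromatin immunoprecipitation and sequencing (ChIP-seq) was done with antibodies to 53BP1, to RNA polymerase II phosphorylated on serine 5 of its C-terminal repeat (S5p) and to the form phosphorylated on serine 2 (S2p). Each ChIP gave 1 library and 1 list of enriched regions, and the input library was not analysed here. A region was taken for a gene where it overlapped the gene's hg19 span widened by 10 kb on each side. By this rule 60 of 128734 regions belonged to the 9 genes: 15 of 11604 for 53BP1, 24 of 62530 for S5p and 21 of 54600 for S2p. The rule used gene positions only. The labels name no damaging agent or other treatment for these libraries, and with 1 library per ChIP no value has a spread between replicates and no test was possible.

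p53 is a transcription factor that DNA damage and other stresses stabilize. Its targets halt the cell cycle, slow growth signalling and act in repair, and several of them are also transcribed at a basal level in unstressed epithelial cells. 53BP1 binds modified nucleosomes beside DNA breaks and steers their repair, and it was first found as a binding partner of p53. Pol II is phosphorylated on serine 5 near the start of a gene and gains serine 2 phosphorylation as it elongates, with high S2p where transcripts are cleaved and polyadenylated.

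The strongest 53BP1 and S5p summits of these genes fell at or close to their starts, so promoter sequences are shown for 5 genes. They are SFN, with the highest 53BP1 fold, PLK2, with the highest S5p fold, CDKN1A, whose summits lay inside its span, BTG2, with the lowest 53BP1 fold, and GDF15, in which no 53BP1 region was listed. Sequences are RefSeq promoters of build GRCh38.p14, from 250 bases before the start to 50 after, and 8 of the 9 genes matched an entry (GADD45A had none). The positions of the regions below are in hg19, so only distances within each build are set side by side. Capitals mark matches, on either strand, to the TATA box core TATAAA, to the CCAAT box, to the GC box core GGGCGG and to the p53 decamer consensus.
SFN, chr1:26862899-26863198, plus strand: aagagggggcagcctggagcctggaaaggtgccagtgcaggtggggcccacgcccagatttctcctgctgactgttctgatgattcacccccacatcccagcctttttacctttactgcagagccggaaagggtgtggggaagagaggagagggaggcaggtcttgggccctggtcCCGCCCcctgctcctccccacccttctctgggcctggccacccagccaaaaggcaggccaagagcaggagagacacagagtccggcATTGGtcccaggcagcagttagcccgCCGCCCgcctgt
PLK2, chr5:58460037-58460336, minus strand: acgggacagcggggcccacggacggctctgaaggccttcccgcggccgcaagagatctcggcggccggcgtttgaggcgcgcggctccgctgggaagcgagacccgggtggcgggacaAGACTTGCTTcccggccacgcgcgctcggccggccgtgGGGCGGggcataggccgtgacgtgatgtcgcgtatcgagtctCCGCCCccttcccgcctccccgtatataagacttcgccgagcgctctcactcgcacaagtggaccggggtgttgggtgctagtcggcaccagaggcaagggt
CDKN1A, chr6:36678464-36678763, plus strand: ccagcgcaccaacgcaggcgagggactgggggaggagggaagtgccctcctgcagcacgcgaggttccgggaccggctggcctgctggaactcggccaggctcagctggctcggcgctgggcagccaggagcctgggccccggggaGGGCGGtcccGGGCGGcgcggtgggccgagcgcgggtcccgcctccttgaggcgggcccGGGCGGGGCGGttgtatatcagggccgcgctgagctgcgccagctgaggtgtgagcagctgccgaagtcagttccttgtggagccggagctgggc
BTG2, chr1:203305269-203305568, plus strand: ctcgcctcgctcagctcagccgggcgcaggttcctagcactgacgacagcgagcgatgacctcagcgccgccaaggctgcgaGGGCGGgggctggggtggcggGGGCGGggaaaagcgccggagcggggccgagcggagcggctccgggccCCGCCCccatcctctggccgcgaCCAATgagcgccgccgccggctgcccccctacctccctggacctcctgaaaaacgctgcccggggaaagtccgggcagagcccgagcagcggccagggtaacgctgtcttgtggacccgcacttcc
GDF15, chr19:18385908-18386207, plus strand: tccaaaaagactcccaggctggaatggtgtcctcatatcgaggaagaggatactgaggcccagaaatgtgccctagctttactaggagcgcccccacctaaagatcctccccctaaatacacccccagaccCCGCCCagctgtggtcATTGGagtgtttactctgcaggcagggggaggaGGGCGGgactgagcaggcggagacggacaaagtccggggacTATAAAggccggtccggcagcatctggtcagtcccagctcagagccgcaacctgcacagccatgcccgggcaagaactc

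GGGCGG, which the factor Sp1 binds, was in the first-listed promoter of all 8 matched genes, and in 44.95% of the 35116 promoters of the table. CDKN1A had 4 copies, BTG2 had 3, ZMAT3 had 1 and the others had 2. TATAAA was found in GDF15, with its first base at -29 from the start, and in none of the other matched genes, against 11.5% of all promoters. Only this exact word was searched, so variants such as the tatataag before the PLK2 start were not counted. CCAAT was in SFN, BTG2, SESN2, GDF15 and ZMAT3, against 34.6% of all promoters. The p53 decamer consensus was matched in PLK2, by AGACTTGCTT with its first base at -132, and in no other matched gene. That decamer was in 6.63% of all promoters. A pair of decamers 0 to 13 bases apart was in 0.0285% of all promoters and in none of these. CATG, the centre of many p53 sites, was in PLK3, GDF15 and ZMAT3, against 54.9% of all promoters. GC content ran from 59.3% in GDF15 to 74.3% in CDKN1A, against a median of 58.7% over the table. ZMAT3 has a second entry in the table, with 37.7%. A match is a description of letters in this window only.

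All 9 genes carried Pol II, and 8 of 9 carried 53BP1 (88.9%, exact 95% interval 51.8 to 99.7). Intervals of shares are exact Clopper-Pearson intervals and cover counting error only. S5p and S2p regions were listed at 9 of 9 genes each within the widened spans. In the span itself S2p was listed at 8 of 9, all but GDF15. The shares of all genes with such regions were not computed, for want of an hg19 annotation, so these counts have no background beside them. Within 1 kb of the 5' end of the span, S5p was listed at 9 genes, 53BP1 at 7 and S2p at 7. The strongest S5p region of 8 of the 9 genes, all but GDF15, was among the strongest 1/50 of the S5p list by the authors' fold enrichment. In that bin of 1251 regions 99.8% held 53BP1, and these 8 were among them, so nothing particular to the genes is read from their count. Over S5p regions of any strength, 8 of 24 at the 9 genes held 53BP1 (33.3%, 15.6 to 55.3), against 15.2% of the whole S5p list. These were the same 8 regions of the strongest 1/50, and no other S5p region of the genes held 53BP1. SESN2 gave 10 of the 24 regions and ZMAT3 gave 6, so they are not independent draws. Nothing particular to the genes is therefore read from this share either.

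Every 53BP1 region of these genes lay on both forms of Pol II, in overlaps of at least 1 bp. On S5p there were 15 of 15 regions (78.2 to 100%), against 97.6% of the whole 53BP1 list. On S2p there were also 15 of 15, against 78.9% of the whole list. All 15 lay on S5p regions of the strongest 1/50 of the S5p list, where 1250 of 1251 regions held S2p. Nothing particular to the genes is therefore read from the overlap with S2p. From the Pol II side, 14 of 24 S5p regions met S2p (58.3%, 36.6 to 77.9), against 60.2% of all S5p regions. Of the S2p regions, 16 of 21 met S5p (76.2%, 52.8 to 91.8), against 54.9% of the whole S2p list. The S5p, 53BP1 and S2p regions of 1 gene often share 1 stretch of chromatin, so these counts are not independent observations.

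**Figure D1:**
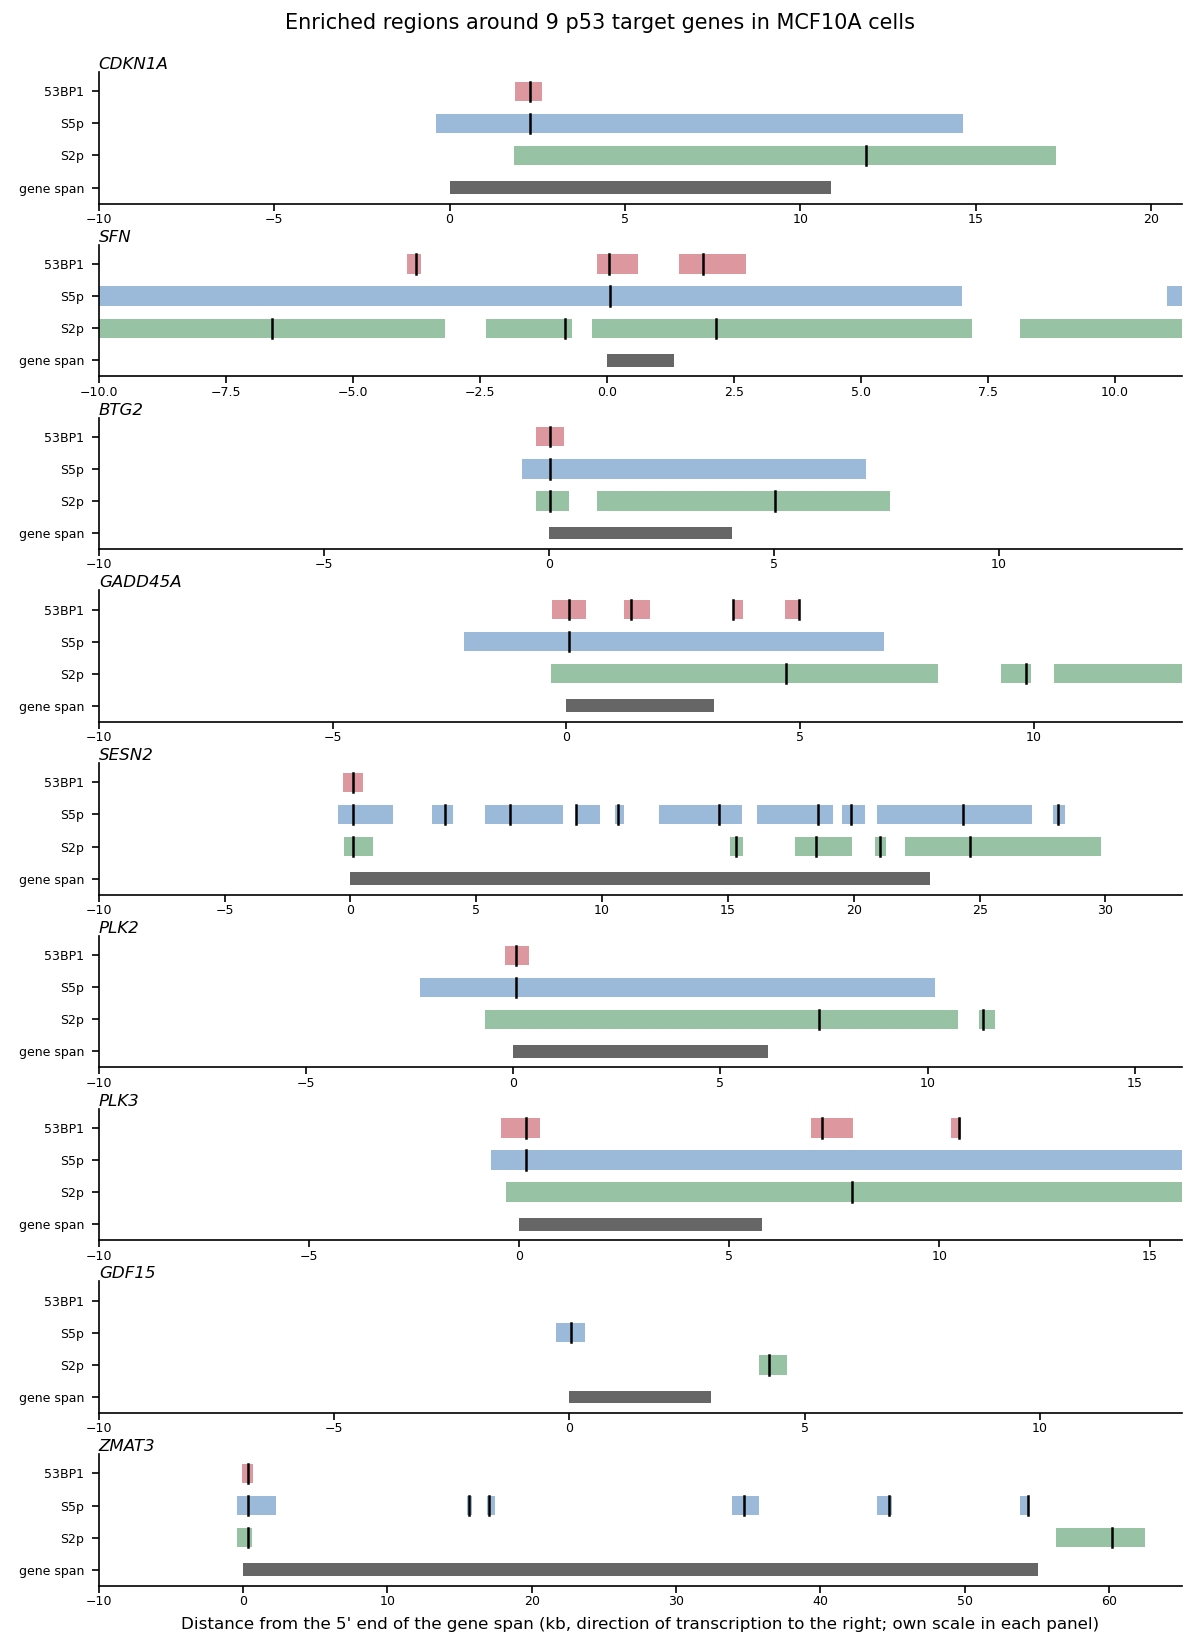
Regions of the 3 lists around each gene, with distance from the 5' end of the span in kb on the x axis and transcription running to the right. Coloured bars are regions, cut off at 10 kb outside the span, black ticks are summits and grey bars are gene spans. At the genes with both, the strongest 53BP1 and S5p summits nearly coincide, close to the 5' end except at CDKN1A. At 9 of 9 genes the strongest S2p summit lies past the 3' end.

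Of the arrest genes CDKN1A and SFN, SFN was among the most strongly marked by fold in all 3 lists. CDKN1A was so in the 2 Pol II lists, but its 53BP1 fold was below those of SFN, GADD45A and SESN2. Positions below are counted in bp from the 5' end of the hg19 span, negative upstream. CDKN1A encodes p21, the inhibitor of cyclin-dependent kinases that carries out p53-dependent G1 arrest, and its span is chr6:36644237-36655116. A single 53BP1 region, chr6:36646113-36646860, had a fold of 15.6 (rank 369 of 11604) with its summit at 2279. One S5p region of 15029 bp covered the whole span, with a fold of 145 (rank 88) and its summit at 2292. One S2p region of 15445 bp began at 1833, had a fold of 51.5 (rank 377), peaked at 11872 and ran 6398 bp past the 3' end. The first bases of the span, up to 1833, thus had S5p but no listed S2p or 53BP1. In the GRCh38 gene table the CDKN1A promoter entry starts 2251 bases into the gene, beside the 2279 and 2292 of the hg19 summits. DINOL, a noncoding RNA gene, overlaps CDKN1A in that table, and ChIP without strand cannot tell the genes apart.

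SFN encodes stratifin, an epithelial protein that holds cells before mitosis by keeping CDK1 in the cytoplasm, and its span of 1315 bp is chr1:27189633-27190947. It held the highest 53BP1 fold of the 9 genes, 22.6 (rank 140) in chr1:27189429-27190241, with the summit at 35. A second 53BP1 region, chr1:27191045-27192377, was nearly as strong, with a fold of 16.0 and its summit at 1895, which is 581 bp past the 3' end. The S5p fold was 184 (rank 33), in a region of 17917 bp from -10927 to 6989 with its summit at 53. SFN also had the highest S2p fold, 91.4 (rank 95), with the summit at 2155, or 841 bp past the 3' end. By fold, SFN was thus first of the 9 genes in the 53BP1 and S2p lists and next to PLK2 in the S5p list.

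BTG2, an antiproliferative protein that brings the deadenylase complex to messenger RNAs, stood apart in how its fold related to its q-value. Its 53BP1 region, chr1:203274374-203275011, had the lowest fold of the 8, 8.06 (rank 3074), with its summit at 16. The deposited -log10 q-value of 44.2 ranked 383, between PLK3 (42.7) and SESN2 (45.3). Among the 165 regions of the 53BP1 list with a -log10 q-value within 10% of it, the median fold was 15.4, and 0.606% of them, counting BTG2 itself, were as low. The S5p fold was 99.7 (rank 241), with the summit at 18. S2p was listed in a pair of regions: one at the start, with a fold of 7.44 and its summit at 20, and one from 1071 to 7568 with a fold of 8.56 and its summit at 5014. The stronger S2p region too was low in fold for its -log10 q-value of 90.8, at the 0.858th percentile of 466 like regions, whose median fold was 15.7. BTG2-DT, a noncoding gene, lies 194 bp upstream in the GRCh38 table, and its part in the signal was not tested.

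**Figure D2:**
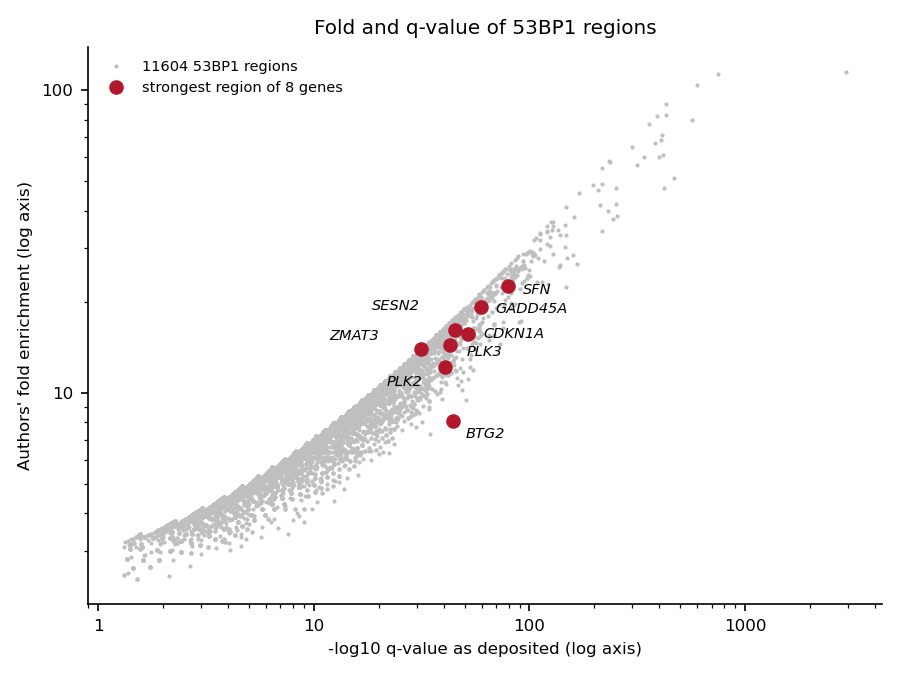
The authors' fold enrichment (y, log axis) against the deposited -log10 q-value (x, log axis) for 11604 53BP1 regions in grey, with the strongest region of 8 genes in red. The other 7 genes lie within the band of grey points, and BTG2, with a fold of 8.06 at a -log10 q-value of 44.2, lies below it.

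The stress genes GADD45A and SESN2 had 53BP1 of similar fold but different Pol II profiles. GADD45A encodes a small damage-induced protein that binds PCNA and activates a stress kinase pathway, and its span is chr1:68150860-68154021. Its start region, chr1:68150551-68151278, had a 53BP1 fold of 19.2 (rank 205) with the summit at 61. The S5p region, 8994 bp long, had a fold of 79.0 (rank 494) and its summit at 64. The S2p region, 8280 bp long, had a fold of 78.8 (rank 130), peaked at 4687 and ran 4790 bp past the 3' end. The S5p summit thus lay at the start of GADD45A and the S2p summit beyond its end. It also held 3 further 53BP1 regions, the most of the 9 genes, with folds of 4.69, 3.67 and 3.17 and summits at 1376, 3561 and 4973.

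SESN2, a sensor of amino acids that restrains mTORC1 signalling, has a longer span of 23040 bp, chr1:28585963-28609002. The 53BP1 region chr1:28585666-28586463 had a fold of 16.1 (rank 331) and its summit at 110. S5p was concentrated at the start, in a region of 2174 bp with a fold of 113 (rank 174) and its summit at 106. Another 9 S5p regions followed, with folds from 2.44 to 4.36, so the body of the gene was listed in pieces. S2p had a region at the start with a fold of 9.93 and its summit at 99, and one over the 3' end with a fold of 10.0 and its summit at 24619. These were close in fold, and the 3 S2p regions between them were weaker, with folds from 2.99 to 4.04. In all, S5p regions covered 70.6% of the span and S2p regions 22.3%.

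The kinase genes PLK2 and PLK3 each lay under 1 continuous Pol II domain. PLK2, a polo-like kinase of centriole duplication and stress responses, has the span chr5:57749809-57755948 on the minus strand. Its S5p region had the highest fold of the 9 genes, 195 (rank 24), over 12439 bp, with the summit at 64. Its 53BP1 region, chr5:57755561-57756135, had a fold of 12.1 (rank 844) and its summit at 66. By fold, the gene highest in S5p thus had the next to lowest 53BP1 value of the 8. By S5p -log10 q-value or region width SFN came first instead, with 2676 and 17917 bp, against 1915 and 12439 bp at PLK2, and SFN had the highest 53BP1 fold. S2p covered the whole span with a fold of 26.5 (rank 1234), peaked at 7377 and ran 4596 bp past the 3' end.

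PLK3, a stress-activated kinase of the same family, has the span chr1:45265897-45271667. The 53BP1 region at its start, chr1:45265475-45266405, had a fold of 14.3 (rank 501) and its summit at 161. S5p had a fold of 92.8 (rank 296) over 16700 bp, with the summit at 154. S2p had a fold of 36.3 (rank 745) over 16438 bp, with the summit at 7915, or 2145 bp past the 3' end. A second 53BP1 region, with a fold of 6.80, had its summit at 7204, and a further one, with a fold of 3.24, at 10456. DYNLT4 overlaps the end of PLK3 in the GRCh38 table and BTBD19 lies 2533 bp beyond it, so the downstream signal cannot be assigned to PLK3 alone.

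GDF15 and ZMAT3 had the weakest Pol II of the 9 genes. GDF15 encodes a secreted stress cytokine of the TGF-beta superfamily, and its span is chr19:18496968-18499986. Its only S5p region, chr19:18496692-18497292, was 601 bp wide with a fold of 5.62 (rank 17784 of 62530) and its summit at 36. Its only S2p region had a fold of 3.65 (rank 25809 of 54600) with the summit at 4232, and no S2p region touched the span. No 53BP1 region was listed within 10 kb of it. By fold, the S5p region fell in the next to strongest of 5 equal bins of the list. In that bin 3.71% of 12506 regions held 53BP1, so most S5p regions of like fold had none listed either. By -log10 q-value the S5p region was at the 80.3rd percentile, in the strongest of 5 bins, for which no such share was computed. Read depth is unknown, so 53BP1 at GDF15 was not detected, which does not show that it was absent. Like BTG2 in the other lists, its S5p fold was low for its -log10 q-value of 34.0, at the 1.27th percentile of 942 like regions with a median fold of 8.68. MIR3189, a microRNA gene, overlaps GDF15 in the GRCh38 table. LRRC25, a protein-coding gene, lies 1961 bp downstream there, so the S2p region past the 3' end cannot be assigned to GDF15 alone.

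ZMAT3, a zinc finger protein that binds RNA and is induced by p53, has the longest span, 55057 bp at chr3:178735011-178790067 on the minus strand. Its 53BP1 region, chr3:178789393-178790120, had a fold of 14.0 (rank 540), with the summit at 347. The S5p region at the start was 2711 bp wide with a fold of 59.4 (rank 1120) and its summit at 354. A second S5p region of some strength, with a fold of 10.9, peaked at 34696 inside the gene, and the other 4 were weaker. S2p at the start had a fold of 5.43, while the strongest S2p region, with a fold of 7.34 (rank 7691), peaked at 60176, or 5120 bp past the 3' end. That region began at 56335, beyond the span. S5p covered 12.1% of the span and S2p 1.11%. Its 53BP1 fold was above those of PLK2 and BTG2, while its S5p fold was the lowest of the 8 genes.

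**Figure D3:**
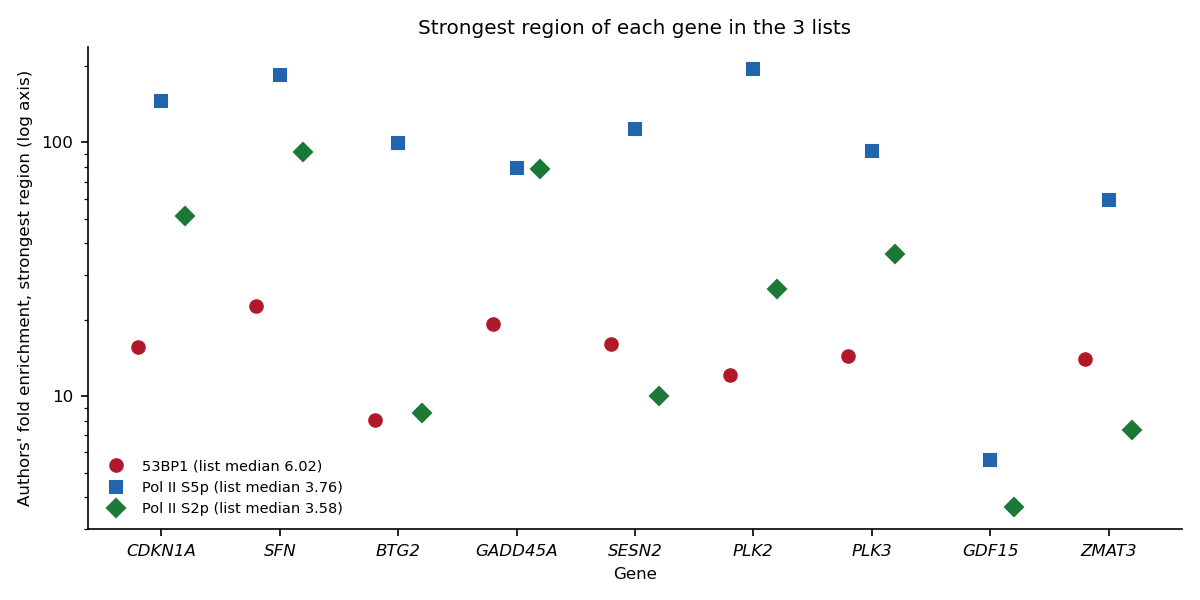
The authors' fold enrichment of the strongest region of each gene (y, log axis) in the 3 lists, 1 library each. Folds rank regions within a list and do not compare the factors; GDF15 has no 53BP1 point, and the 53BP1 folds of the other 8 genes lie between 8.06 and 22.6 around a median of 15.0, while the median of the whole list is 6.02.

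The strongest summits of 53BP1 and S5p nearly coincided at all 8 genes with both. The distances between them were 2 bp at BTG2 and PLK2, 3 bp at GADD45A, 4 bp at SESN2, 7 bp at PLK3 and ZMAT3, 13 bp at CDKN1A and 18 bp at SFN. The median was 5.5 bp, against 24 bp (quartiles 8 and 74) over all 1249 S5p regions of the strongest 1/50 that held 53BP1. All 8 were within 20 bp, against 46.1% of those 1249 regions. That limit was set after the values were seen and lies just above the largest of them, so the count follows from the limit. The 1249 regions were also not matched for S5p fold, and nothing particular to the genes is read from this share. These summits come from 1 library each, and libraries were sheared to fragments far longer than these distances, so differences of this size between genes are below what the assay resolves. With the exception of CDKN1A, the S5p summits lay 18 to 354 bp downstream of the annotated 5' end.

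The strongest S2p summit lay past the annotated 3' end at 9 of 9 genes (66.4 to 100%). At GDF15 and ZMAT3 the whole S2p region lay past the end of the span, and whether it belongs to the gene was not tested. With 25 kb of flank in place of 10 kb, this count of summits past the 3' end was 7 of 9, and with no flank it was 7 of 8. The distance past the end was 841 bp at SFN, 949 bp at BTG2, 993 bp at CDKN1A, 1214 bp at GDF15, 1238 bp at PLK2, 1526 bp at GADD45A, 1580 bp at SESN2, 2145 bp at PLK3 and 5120 bp at ZMAT3. The rank order followed neither gene length nor S2p fold exactly, and 8 of the 9 values fell between 841 and 2145 bp although the spans ran from 1315 to 55057 bp. No hg19 annotation was at hand, so the share of all genes with this arrangement was not computed. As a measure over the list, the strongest S2p summit on an S5p region was over 1 kb from the S5p summit at 6 of 8 genes (75%, 34.9 to 96.8), against 42.1% of 1250 S5p regions of the strongest 1/50 with S2p. The exceptions were SESN2 and ZMAT3, with 7 and 5 bp, whose S5p start regions were 2174 and 2711 bp wide and met only the S2p region at the start. The limit of 1 kb was set after the values were seen, the interval includes 42.1%, and the bin was not matched for S5p region width. Nothing particular to the genes is read from this share.

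**Figure D4:**
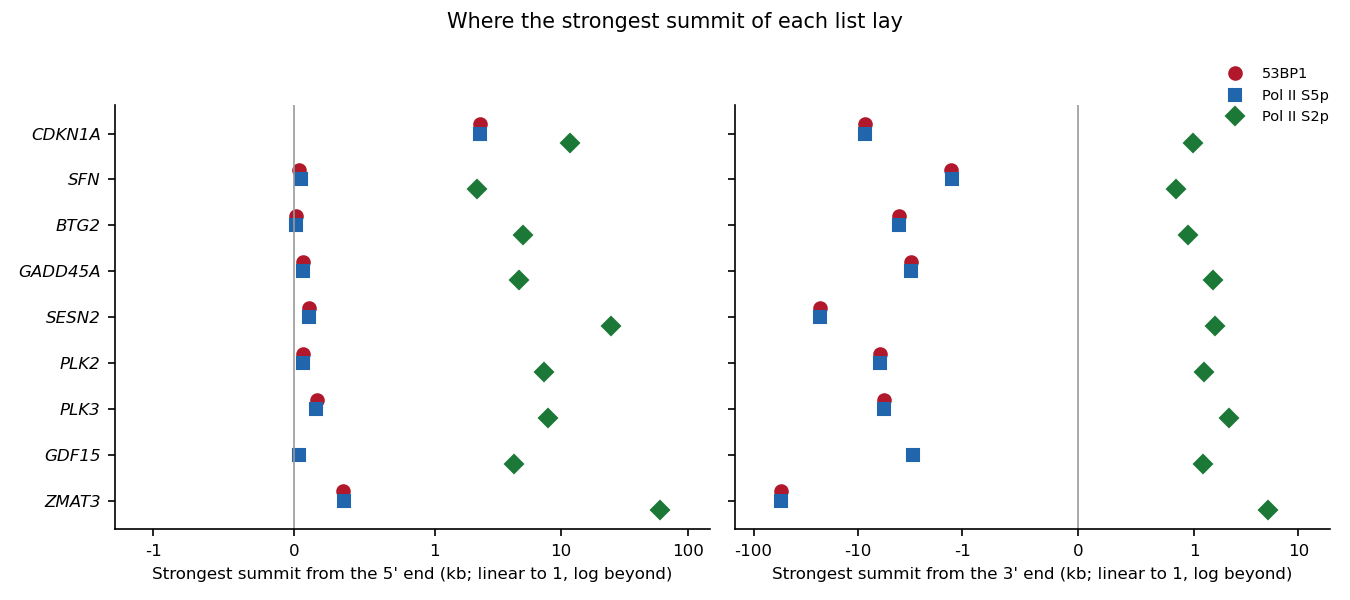
Distance of the strongest summit of each list from the 5' end (left) and from the 3' end (right) of each gene span, in kb, on axes that are linear to 1 kb and logarithmic beyond. 53BP1 (circles) and S5p (squares) overlap close to the 5' end except at CDKN1A, where both lie inside the span, and S2p (diamonds) lies past the 3' end at all 9 genes.

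SFN, GADD45A and PLK3 held more than 1 53BP1 region on their S5p region, which is 3 of 8 (37.5%, 8.52 to 75.5). Among all S5p regions of 5 kb or more with 53BP1 the share was 33.8%. That limit would leave out SESN2 and ZMAT3, whose S5p regions of 2174 and 2711 bp each held 1 53BP1 region. The shares thus rest on unlike sets, and nothing particular to the genes is read from the count. The S5p regions of SFN, GADD45A and PLK3 were 8994 to 17917 bp wide. Of the 7 additional 53BP1 regions, 5 had their summit past the 3' end. The nearest of them lay 260 bp from the S2p summit at SFN, 286 bp at GADD45A and 711 bp at PLK3. Those of SFN and PLK3 had folds of 16.0 and 6.80, and that of GADD45A had a fold of 3.17, near the bottom of the list (rank 11352). The other additional regions lay farther from the strongest S2p summit: 5907 bp at SFN, 1126 and 3311 bp at GADD45A and 2541 bp at PLK3. No share over the list was computed for these positions, so nothing particular to the genes is read from them.

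The strongest 53BP1 regions of the 8 genes were 575 to 931 bp wide (median 738), against a median of 561 bp over the list. The median fold of the strongest regions was 15.0 for 53BP1, 99.7 for S5p and 26.5 for S2p, against list medians of 6.02, 3.76 and 3.58. The values of the genes are those of the strongest of up to 10 regions each, and the list medians cover all regions.

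Set against other S5p regions of the strongest 1/50 with 53BP1, the 8 genes spread over the range of 53BP1 fold. SFN was at the 90.6th percentile of the 1249 regions, GADD45A at the 86.9th, SESN2 at the 80.2nd and CDKN1A at the 77.9th. PLK3 was at the 71.7th, ZMAT3 at the 70.0th, PLK2 at the 59.6th and BTG2 at the 23.2nd. Of the 8 genes, 7 were therefore above the median of these regions, a fold of 10.9, and BTG2 was below it. These percentiles are not matched for S5p fold within the bin. The S5p folds of its 1251 regions ran from 57.1 to 300 with a median of 72.7, and all the genes but ZMAT3 were above that median. A percentile here is thus not a rank among regions of like S5p fold. The same genes spread more widely for the strongest S2p region on that S5p region, from the 1.36th percentile at ZMAT3 to the 93.4th at SFN. These S2p percentiles are among the 1250 regions of the bin with S2p. At ZMAT3 and SESN2 they use folds of 5.43 and 9.93 at the start, not the strongest S2p folds of 7.34 and 10.0. The orders that follow use the strongest region of each gene. Across the 8 genes the order by 53BP1 fold had a Spearman rho of 0.0714 with S5p fold and 0.762 with S2p fold, and across 9 genes S5p and S2p had a rho of 0.55. These describe 8 or 9 genes that share libraries, and they moved with the measure used to order the genes. For 53BP1 and S5p rho was 0.524 by -log10 q-value and 0.515 by region width. For 53BP1 and S2p it was 0.786 by -log10 q-value and 0.347 by width, and for S5p and S2p it was 0.733 and 0.883.

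**Figure D5:**
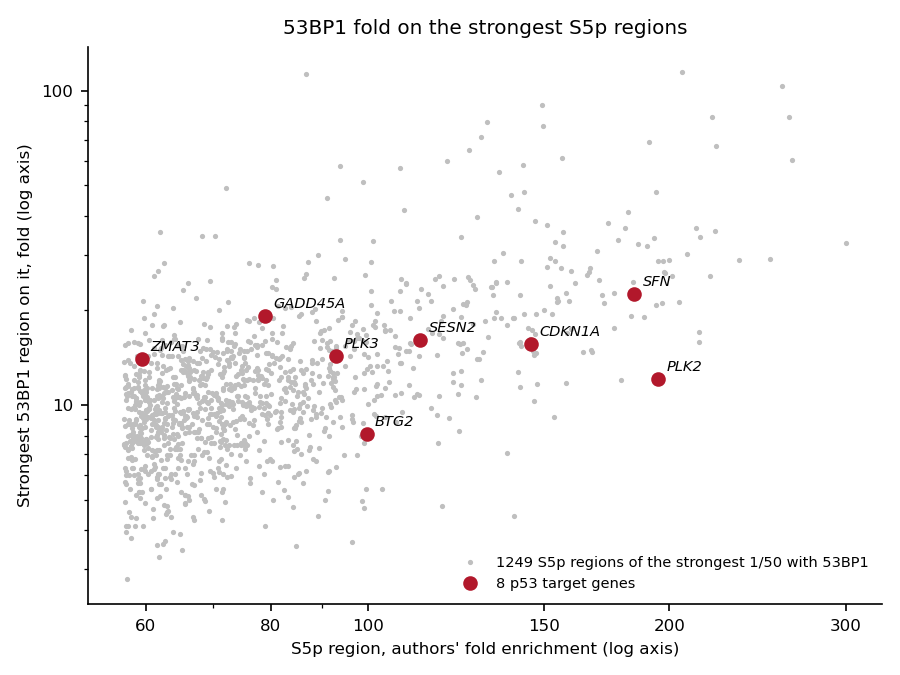
The fold of the strongest 53BP1 region (y, log axis) against the S5p fold of the region it lies on (x, log axis), for the 1249 S5p regions of the strongest 1/50 with 53BP1 in grey and 8 p53 target genes in red. Over the whole cloud, without matching for S5p fold, SFN and GADD45A lie high for 53BP1 and BTG2 lies low. PLK2 has the highest S5p fold of the genes with a 53BP1 fold of 12.1.

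Coverage of the gene spans by Pol II differed widely among the 9 genes. S5p covered the entire span of 6 genes (CDKN1A, SFN, BTG2, GADD45A, PLK2 and PLK3), and S2p covered that of 4 (SFN, GADD45A, PLK2 and PLK3). S2p covered 83.2% of CDKN1A and 84.5% of BTG2. The short span of GDF15, 3019 bp, had the lowest coverage of the 9, with 10.8% for S5p and 0% for S2p and 53BP1. 53BP1 covered 46.3% of SFN and 30.7% of GADD45A, and from 1.23% to 8.82% of each of the other 6 genes with a region. Over all 9 spans together, 53BP1 covered 4.22% of bases, S5p 48.5% and S2p 30.8%. The widening of 10 kb set which flanking regions entered: the outermost region inside it was an S5p region 9705 bp from SFN with a fold of 8.21. Just outside it were S2p and S5p regions 11031 and 11033 bp from PLK3, with folds of 47.4 and 126.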

How the data were processed

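ChIP-seq for 53BP1, Pol II S5p and Pol II S2p was done in MCF10A cells crosslinked with formaldehyde, per the labels' protocols. The authors deposited 1 list of enriched regions per ChIP. Each region has the authors' fold enrichment (a ratio over background), a deposited -log10 p-value and -log10 q-value, and a deposited score equal to 10 times the -log10 q-value within 1. Per the submitters' processing notes, hg19 was the build and bcl2fastq 2.20.0.422 a tool. Aligner, peak caller, control and read depth: not given in the sources used here. Depth changes how many regions are called and how wide, so ranks were taken within a list only.

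Autosomes and chromosome X were used, which left out 1, 2 and 1 rows of the 53BP1, S5p and S2p lists. Gene spans came from the selection rule and strands from the RefSeq promoter table, except for GADD45A, whose strand is background knowledge. All 9 members are named. Overlaps needed 1 bp; the overlap code was tested on simulated data. With 1 library per ChIP no test was made. Bins of the S5p list by fold are 1/50 and 1/5 of its regions. Genes, lists and measures were chosen with earlier results of these data known. Computations used scipy 1.17.1, pandas 2.3.3, numpy 2.4.6 and Python 3.11.15, with figures from matplotlib 3.10.9.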

Additional observations from a re-analysis of the deposited data

How the results depend on the processing

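Alternatives were a minimum -log10 q-value of 5, only those regions whose fold was in the upper 50%, other widenings of the spans, other start windows, other overlap definitions and ranking by -log10 q-value or width. The counts of genes with 53BP1, S5p or S2p stayed within 1 of those reported under all of these that were run. Distances of 10 and 50 bp between 53BP1 and S5p summits, and other windows and ranks for the S2p summit past the 3' end, were added after seeing the data; 6 and 8 of the 8 genes were within 10 and 50 bp. No S5p region (0%) was covered by 53BP1 over 50% of its length, since S5p regions are wider, and without widening 100% of S2p regions met S5p. Of span bases, S2p covered 29.9% with that minimum and likewise in the upper 50%, and 34.6% with 10 kb of flank. S5p covered 46.1%, 40.3% and 36.5% in these settings, and 53BP1 3.73% in the upper 50% and 3.39% with flanks. The median list percentile of the strongest regions, 96.3 for 53BP1, 99.6 for S5p and 97.7 for S2p, was 96.8, 99.8 and 98.5 when ranked by -log10 q-value. It was 95.7 for 53BP1 regions at the start and 98.2 for S2p without widening. BTG2 moved most with the ranking, to the 96.7th percentile of the 53BP1 list by -log10 q-value, against the 73.5th by fold; the cause was not tested. The rho over genes was 0.524 for 53BP1 and S5p by -log10 q-value and 0.515 by width. In the same order it was 0.786 and 0.347 for 53BP1 and S2p, and 0.733 and 0.883 for S5p and S2p. No paired analysis was possible because there is a single library for every antibody. The unknown depth limits the reading of any region that is not listed.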

Other observations

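The widened spans also took in Pol II regions that lay outside the genes, by a neighbour in the GRCh38 gene table in some cases. Upstream of SFN, where ZDHHC18 ends 5545 bp away in that table, an S2p region with a fold of 10.5 had its summit at -6582, and a weak 53BP1 region with a fold of 4.58 had its summit at -3752. The S5p region of SFN reached across this stretch to -10927. Downstream of SFN, an S2p region with a fold of 13.2 peaked at 12033 and an S5p region with a fold of 8.21 at 11993, with no 53BP1 listed on either. Beyond GADD45A, an S2p region with a fold of 7.43 peaked at 13799 without S5p or 53BP1. Whether these regions belong to the p53 targets or to their neighbours was not tested.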
